A study of Mus musculus with 15 samples.

Results

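The 10 genes described here mark synovial fibroblasts and were followed through collagen-induced arthritis in the mouse: Pdpn, Thy1, Cdh11, Fap, Pdgfra, Pdgfrb, Cd248, Prrx1, Twist1 and Cd34. They were found by symbol in the array annotation and are 10 of the 19938 genes measured. The list was chosen with earlier results of these data known. Each of the 10 had 1 probe set that listed that gene alone, so all of them could be followed. RNA of whole tarsal joints was measured on 1-colour Affymetrix Mouse Gene 1.0 ST arrays, with 1 joint on each array and none pooled. The mice were males of the DBA/1JBom strain, of unstated age. Arthritis was induced with chicken collagen type II in complete Freund's adjuvant, followed by a boost of collagen in incomplete Freund's adjuvant. Joints were taken at day 0 to 3, at week 1 to 2 and at week 3 to 4 of clinical arthritis, each with a clinical score of 3, and in a declining phase. A declining joint had held a score of 3 for more than 2 weeks by its label, or at least 3 weeks by the series' design text. It had then lost more than 1 point by the study's methods, or at least 1 by its supplement. The supplement gives a score under 2 at sampling. The controls were joints of animals in which arthritis was not induced. The study's methods call the array controls non-immunised, yet also describe a control group given adjuvant alone, and which of these the controls were is not settled by the labels.

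Each group held 3 joints. The arthritic joints carry different animal numbers, by which they are named here, and the study's methods take 1 joint from each animal as the statistical unit. The array of animal 57, of day 0 to 3, did not pass the authors' quality control and was left out unless stated, which left 2 joints at day 0 to 3 and 14 arrays in all. Values are log2 expression, so that a difference of 1 is a 2-fold change. A gene was called when its adjusted p was under 0.05 in limma after Benjamini-Hochberg adjustment over all 19938 genes. The SD of log2 values over genes, a measure of an array's signal range, was lowest in control 2 (1.22) and animal 10 (1.28), was 1.41 and 1.46 in the other controls, and lay between 1.48 and 1.65 in the remaining 10 arthritic joints.

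Synovial fibroblasts line the joint cavity and fill the tissue beneath it. Those of the lining carry podoplanin and cadherin-11, those of the sublining carry THY1, and both are known to invade and remodel matrix in arthritis. Platelet-derived growth factors act on them through PDGFRA and PDGFRB, while the transcription factors PRRX1 and TWIST1 belong to the mesenchymal programme that these cells keep from limb development. No marker is carried by fibroblasts alone: THY1 is found on mouse T cells, CD34 on blood vessels and blood progenitors, PDGFRB and CD248 on pericytes, podoplanin on lymphatic vessels and osteocytes, and cadherin-11 on osteoblasts.

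Promoters were read for 5 of the markers, Pdpn, Pdgfra, Prrx1, Twist1 and Cd34, and not for the others. They came from the RefSeq promoter table (build GRCm38.p6, from 250 bases before to 50 bases after the start of the gene). Those of Pdpn, Pdgfra and Twist1 are shown, Pdpn and Pdgfra because their levels were the most alike of any pair of markers, and Twist1 as the gene of a factor that binds E-boxes. Capitals mark each E-box, CANNTG on both strands, the motif to which TWIST1 binds together with an E protein.
Pdpn, chr4:143299515-143299814, minus strand: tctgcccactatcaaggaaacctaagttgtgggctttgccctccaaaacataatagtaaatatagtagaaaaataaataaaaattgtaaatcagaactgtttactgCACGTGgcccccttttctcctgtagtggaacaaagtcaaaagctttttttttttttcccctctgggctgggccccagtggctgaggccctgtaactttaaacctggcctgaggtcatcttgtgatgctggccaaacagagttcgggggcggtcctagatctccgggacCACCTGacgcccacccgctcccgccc
Pdgfra, chr5:75152001-75152300, plus strand: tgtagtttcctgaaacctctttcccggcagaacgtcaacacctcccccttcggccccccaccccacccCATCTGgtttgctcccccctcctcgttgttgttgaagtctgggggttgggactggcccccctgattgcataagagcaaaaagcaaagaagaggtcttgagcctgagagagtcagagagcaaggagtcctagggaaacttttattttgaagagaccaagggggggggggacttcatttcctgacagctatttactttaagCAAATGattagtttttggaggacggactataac
Twist1, chr12:33957421-33957720, plus strand: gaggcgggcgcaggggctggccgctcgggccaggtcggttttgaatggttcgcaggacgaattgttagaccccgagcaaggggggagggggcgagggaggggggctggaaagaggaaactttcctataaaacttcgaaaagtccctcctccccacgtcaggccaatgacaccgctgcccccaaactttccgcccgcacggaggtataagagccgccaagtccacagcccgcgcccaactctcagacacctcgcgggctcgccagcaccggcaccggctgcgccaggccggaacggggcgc
The Pdpn window held 2 E-boxes, CACGTG beginning 144 bases before the start and CACCTG beginning 24 bases after it. The Pdgfra window also held 2, CATCTG beginning 182 bases before the start and CAAATG beginning 17 bases after it. The windows of Twist1, Prrx1 and Cd34 held none. An E-box is common, being present in 72.3% of all 32851 promoters of the table. The Twist1 window alone among the 5 held the letters TATAAA and CCAAT, which 13.6% and 37.4% of promoters hold. The motif TGANTCA, held by 7.81% of promoters, was in none of the 5. None of these matches overlapped another.

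Fap and Cdh11 were the markers called higher in arthritic joints, and Fap was the only one called in all 3 phases with a clinical score of 3. FAP is a prolyl-specific serine protease of the fibroblast membrane that is characteristic of activated fibroblasts. Its log2 values were 8.78, 7.89 and 7.76 in controls 1, 2 and 3, and 9.26 and 9.39 in animals 16 and 18 at day 0 to 3. At week 1 to 2 they were 9.85, 10.24 and 9.79 in animals 33, 43 and 52, and at week 3 to 4 they were 9.82, 9.46 and 9.85 in animals 54, 29 and 60. In the declining phase they were 9.18, 9.01 and 8.48 in animals 15, 21 and 10. All 8 joints of the first 3 phases thus lay above every control, whereas in decline animals 15 and 21 lay between and animal 10 lay below control 1. Against control, Fap was 2.27-fold higher at day 0 to 3 (log2 change 1.18, SE 0.29, adjusted p = 0.027), 3.52-fold at week 1 to 2 (1.81, SE 0.26, adjusted p = 0.0024) and 2.96-fold at week 3 to 4 (1.56, SE 0.26, adjusted p = 0.020). The declining joints were 1.67-fold higher, which was not called (log2 change 0.74, SE 0.26, adjusted p = 0.31). Fap was also the only marker called by the moderated F test for any difference among the 5 groups (adjusted p = 0.0082), where 5.2% of all genes were called. Over 14 fits that each left out 1 array, the call of Fap was kept in 10 at day 0 to 3 (lost without animal 16, animal 18, control 2 or control 3), in 14 at week 1 to 2 and in 11 at week 3 to 4 (lost without animal 54, animal 60 or control 2). Another test, of the kind named in the study's methods, was fitted gene by gene on only the groups compared, instead of limma. It called neither Fap (adjusted p = 0.35, 0.13 and 0.33 in the first 3 phases) nor Cdh11 in any phase. The methods do not state which groups entered the study's own test, which may therefore differ from this one. These are bulk samples, in which a change in the number of fibroblasts and a change of RNA per fibroblast cannot be told apart.

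Cadherin-11, by which lining fibroblasts adhere to one another, was lowest in the controls and highest at week 1 to 2. The log2 values of Cdh11 were 9.83, 8.70 and 7.97 in controls 1 to 3, 10.07 and 10.38 at day 0 to 3, and 10.34, 10.70 and 10.53 at week 1 to 2. They were 9.95, 9.66 and 9.87 at week 3 to 4 and 9.83, 9.41 and 10.01 in the declining joints. The controls spread over almost 2 log2 units (mean 8.84 ± 0.94, SD, n = 3), the widest spread of any marker in any group, and control 1 reached the level of the late joints. Cdh11 rose 2.62-fold at day 0 to 3 (log2 change 1.39, SE 0.38, adjusted p = 0.042) and 3.22-fold at week 1 to 2 (1.69, SE 0.34, adjusted p = 0.011). At week 3 to 4 (log2 change 0.99, SE 0.34, adjusted p = 0.12) and in decline (0.92, SE 0.34, adjusted p = 0.33) it was not called. The call at day 0 to 3 was kept in 3 of 14 fits that each left out 1 array (those without control 1, animal 10 or animal 21), and the call at week 1 to 2 in 13 of 14 (lost without animal 43, adjusted p = 0.057). Without control 1, Cdh11 was also called at week 3 to 4 (log2 change 1.49, adjusted p = 0.0096) and in decline (1.41, adjusted p = 0.0498).

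**Figure D1:**
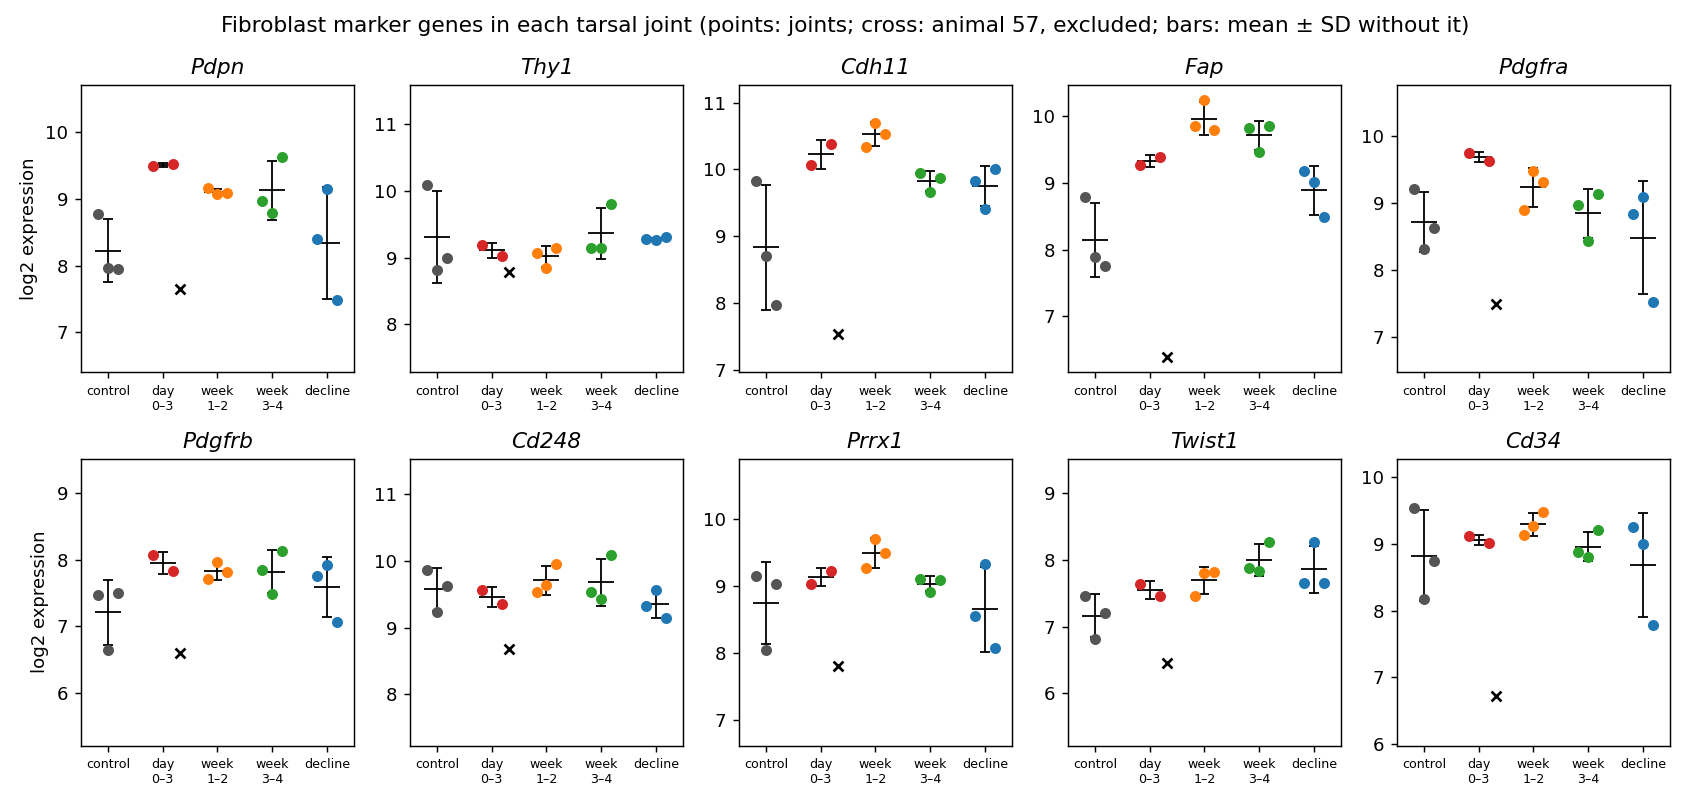
Log2 expression of the 10 fibroblast markers (y axis, each panel spanning the same 4.3 log2 units) by group (x axis), with 1 point for each joint, bars for the mean ± SD without animal 57, and a cross for animal 57. In the first 3 phases Fap lies above every control except in animal 57, whereas Thy1 and Cd248 overlap the controls in every phase.

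Cdh11 had 3 further probe sets that also list 2 other loci, 6820431F20Rik and 2610005L07Rik, annotated as transcribed pseudogenes, and these were left out of the tests because a signal there cannot be assigned to 1 gene. Over the 14 joints they followed the probe set of Cdh11 alone with r = 0.69, 0.78 and 0.67. Their group means exceeded control by 0.93, 0.48 and 0.80 at day 0 to 3 and by 0.95, 0.57 and 0.90 at week 1 to 2, smaller differences than in the probe set of Cdh11 alone. In decline they differed from control by -0.10, 0.02 and -0.11, where the probe set of Cdh11 alone was 0.92 higher. The probe sets parted in controls 2 and 3 and in animal 10. Animal 10 stood at 10.01 in the probe set of Cdh11 alone, above both other declining joints, but at 9.17, 8.08 and 8.82 in the shared ones, below both other declining joints in each.

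**Figure D2:**
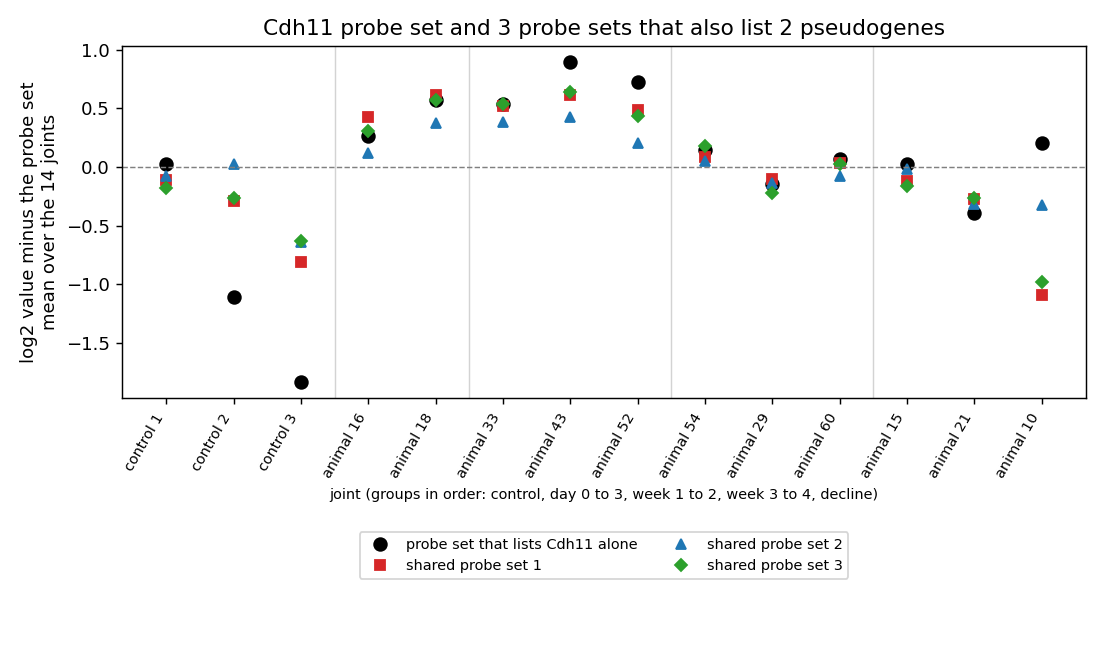
Log2 value of 4 probe sets minus the mean of that probe set over the 14 joints (y axis) for each joint (x axis). The probe set that lists Cdh11 alone (black) and the 3 shared ones move together from day 0 to 3 through week 3 to 4 and part in controls 2 and 3 and in animal 10.

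Podoplanin, a mucin-like glycoprotein of lining fibroblasts and the ligand of the platelet receptor CLEC-2, was at its highest at the onset of arthritis. Pdpn stood at 9.49 and 9.52 at day 0 to 3, at 9.16, 9.07 and 9.09 at week 1 to 2, and at 8.96, 8.79 and 9.63 at week 3 to 4. The controls were at 8.77, 7.96 and 7.95, and the declining joints at 8.40, 9.15 and 7.48. All 8 joints of the first 3 phases lay above every control, yet the decline group ranged from below the lowest control to above the highest. None of the differences was called: the log2 change against control was 1.28 (SE 0.39, adjusted p = 0.062) at day 0 to 3, 0.88 (SE 0.35, adjusted p = 0.12) at week 1 to 2, 0.90 (SE 0.35, adjusted p = 0.16) at week 3 to 4 and 0.12 (SE 0.35, adjusted p = 0.92) in decline. Pdpn is also on a list of bone-related genes that the study drew up from these arrays.

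THY1, a small membrane-anchored glycoprotein that marks sublining fibroblasts, differed little from control. Thy1 stood at 10.09, 8.82 and 9.00 in the controls and at 9.19 and 9.02 at day 0 to 3. It stood at 9.07, 8.85 and 9.15 at week 1 to 2, at 9.14, 9.15 and 9.80 at week 3 to 4, and at 9.27, 9.26 and 9.30 in decline. Control 1 was the highest of all 14 arrays, and every phase lay within the range of the controls. The log2 changes against control were -0.20, -0.28, 0.06 and -0.03 in the order of the phases, and the 95% intervals were wide (for week 1 to 2, -0.88 to 0.31).

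The PDGF receptors had the same direction as Pdpn at onset. Pdgfra, the receptor that marks mesenchymal progenitors, stood at 9.75 and 9.63 at day 0 to 3 against 9.21, 8.32 and 8.62 in the controls, a log2 change of 0.97 (SE 0.40, adjusted p = 0.14) with no overlap. It stood at 8.90, 9.48 and 9.32 at week 1 to 2, at 8.97, 8.44 and 9.13 at week 3 to 4, and at 8.84, 9.09 and 7.52 in decline, all of these groups overlapping the controls. Pdgfrb stood at 8.07 and 7.83 at day 0 to 3, at 7.71, 7.97 and 7.81 at week 1 to 2, and at 7.84, 7.48 and 8.12 at week 3 to 4. Its controls were at 7.47, 6.65 and 7.50 and its declining joints at 7.75, 7.92 and 7.07. The joints of the first 2 phases lay above every control, while those of week 3 to 4 overlapped control 3 by a small margin. Its log2 changes were 0.74, 0.62, 0.61 and 0.38 over the phases, with adjusted p of 0.13, 0.13, 0.19 and 0.59.

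Prrx1 encodes a homeobox factor of limb mesenchyme. It stood at 9.16, 8.04 and 9.04 in the controls, at 9.04 and 9.23 at day 0 to 3, at 9.27, 9.71 and 9.50 at week 1 to 2, at 9.11, 8.92 and 9.09 at week 3 to 4 and at 8.56, 9.33 and 8.07 in decline. Only the joints of week 1 to 2 lay clear of the controls (log2 change 0.75, SE 0.31, adjusted p = 0.13). Twist1, whose product is a basic helix-loop-helix factor, was highest at week 3 to 4 (7.88, 7.83 and 8.27) and next in decline (7.65, 8.26 and 7.65). It stood at 7.46, 7.80 and 7.82 at week 1 to 2, at 7.64 and 7.46 at day 0 to 3, and at 7.46, 6.82 and 7.21 in the controls. Twist1 was the only marker for which every joint of all 4 phases lay above every control, in some joints by less than 0.01. Its log2 change was 0.39 (SE 0.24) at day 0 to 3, 0.53 (SE 0.21) at week 1 to 2, 0.83 (SE 0.21) at week 3 to 4 and 0.69 (SE 0.21) in decline, with adjusted p of 0.32, 0.12, 0.063 and 0.25.

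CD248 is a C-type lectin of pericytes and stromal cells, and CD34 a sialomucin that marks a sublining subset of fibroblasts as well as blood vessels. Cd248 stood between 9.15 and 10.08 in all 14 arrays, and the controls (9.86, 9.23 and 9.63) spanned most of that range. Cd34 stood at 9.53, 8.18 and 8.75 in the controls, at 9.11 and 9.01 at day 0 to 3, at 9.13, 9.27 and 9.47 at week 1 to 2, at 8.87, 8.80 and 9.20 at week 3 to 4 and at 9.25, 9.00 and 7.79 in decline. Both genes overlapped the controls in every phase. The log2 changes were between -0.22 and 0.13 for Cd248 and between -0.14 and 0.47 for Cd34, and for Cd34 at week 1 to 2 the 95% interval ran from -0.30 to 1.24.

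**Figure D3:**
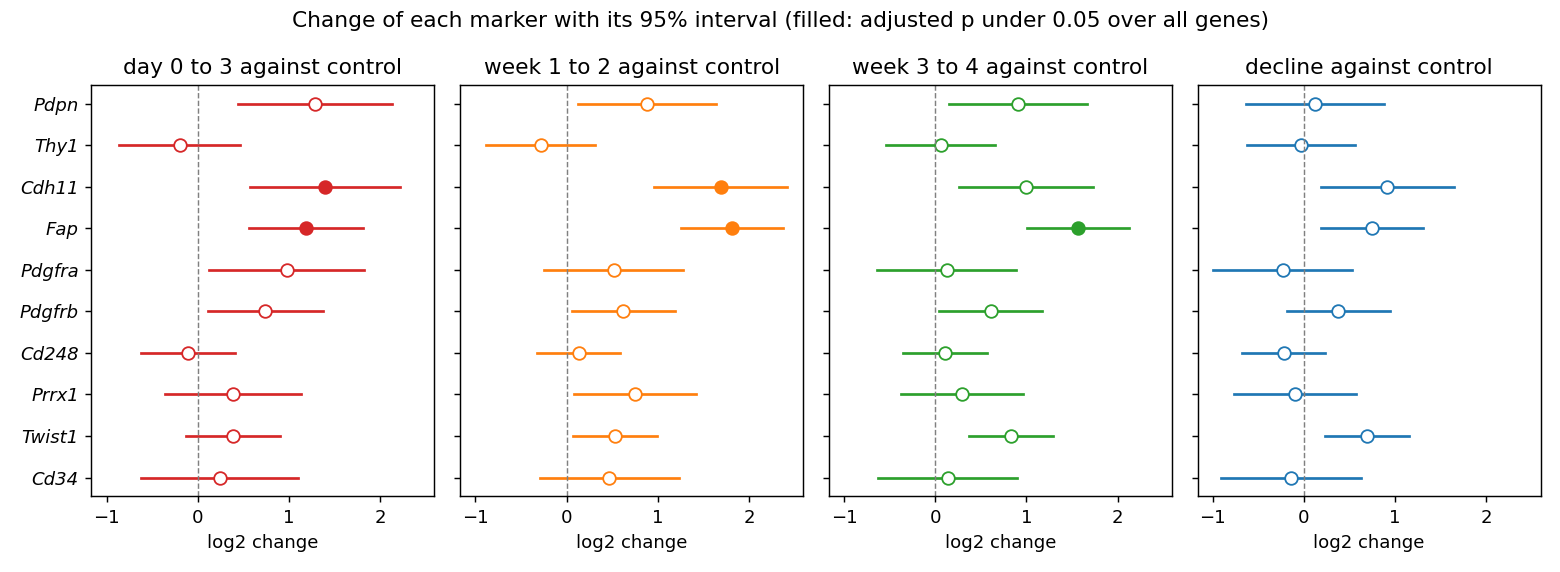
Log2 change against control (x axis) of each marker in 4 phases, with the 95% interval of the limma fit as a line. Filled points, an adjusted p under 0.05, are Fap in the first 3 panels and Cdh11 in the first 2, and the decline panel has none.

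Counted over the markers, 2 of 10 were called higher at day 0 to 3, when 4.46% of all genes were called higher. At week 1 to 2 the count was again 2 of 10 (all genes, 5.41%), at week 3 to 4 it was 1 of 10 (0.958%) and in decline 0 of 10 (0%). Called lower were 0 of 10 markers in each phase, where 3.36%, 4.64%, 0.592% and 0% of all genes were. In decline limma called 0 of all 19938 genes, although 5.58% were higher and 6.46% lower at an unadjusted p under 0.05. At that unadjusted level 3 markers were higher in decline, Twist1, Fap and Cdh11, with adjusted p of 0.25, 0.31 and 0.33. Markers whose joints all lay above every control numbered 6 of 10 at day 0 to 3 (18.4% of all genes), 6 of 10 at week 1 to 2 (13.6%), 3 of 10 at week 3 to 4 (10.5%) and 1 of 10 in decline (3.8%). The 6 markers differed: Pdgfra was clear of the controls at day 0 to 3 only and Prrx1 at week 1 to 2 only, while Pdpn, Cdh11, Fap, Pdgfrb and Twist1 were clear in both. None lay wholly below the controls in any phase, as 27.8%, 23.3%, 15.4% and 6.2% of all genes did. The median log2 change of the 10 markers was 0.56, 0.58, 0.45 and 0.04 over the 4 phases, where the median of all genes was -0.12, -0.13, -0.09 and -0.05. The 4 comparisons share the same 3 controls.

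Phases were then compared with each other, where limma called 0 markers. Of all genes it called 1 (0.00502%) in each comparison but that of decline with week 3 to 4, where it called 0 (0%). From day 0 to 3 to week 1 to 2, Fap (log2 change 0.63, SE 0.29, unadjusted p = 0.048), Prrx1 (0.36) and Cd34 (0.23) were higher in every joint, as were 9.12% of all genes, and Pdpn (-0.40) and Pdgfra (-0.46) were lower in every joint, as were 11.2%. From week 1 to 2 to week 3 to 4, Cdh11 (-0.70, SE 0.34) and Prrx1 (-0.45, SE 0.31) were lower in every joint (5.07% of all genes) and Twist1 (0.30, SE 0.21) was higher in every joint (9.91%). Set against the mean of the first 2 phases, week 3 to 4 again had Twist1 higher in every joint (0.37, SE 0.19) and Cdh11 lower (-0.55, SE 0.31), as were 6.2% and 2.94% of all genes. From week 3 to 4 to decline all 10 log2 changes were negative. The weakest, that of Cdh11 (-0.08), lay at percentile 34.7 of the changes of all genes. Over the alternative fits 15 of 280 values for markers in this comparison changed sign. Animal 10 lay below both other declining joints for 7 markers. Fap (-0.82, SE 0.26, unadjusted p = 0.0072) was lower in every joint, as were 4.49% of all genes, while 4.33% were higher in every joint. Every adjusted p for a marker in these comparisons was 0.746 or more. A letter code in the array names of the study, of unstated meaning, also followed phase: the joints of the first 2 phases and animal 54 carried 1 letter, and animals 29 and 60 and all declining joints another, so that a difference between early and late phases and one between letters cannot be told apart. Animal 54, the only joint of week 3 to 4 with the early letter, was lower than every joint of week 1 to 2 for Cdh11 (9.95). It was higher than each of them for Twist1 (7.88). Being 1 joint, it cannot part phase from letter.

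By group mean, 3 markers were highest at day 0 to 3 (Pdpn, Pdgfra and Pdgfrb), 5 at week 1 to 2 (Cdh11, Fap, Cd248, Prrx1 and Cd34) and 2 at week 3 to 4 (Thy1 and Twist1). The lowest mean was that of the controls for 5 markers, of decline for 4 and of week 1 to 2 for Thy1. The spread between joints of a group was uneven. The median SD over the markers was 0.52 in controls and 0.41 in decline, against 0.12 at day 0 to 3, 0.19 at week 1 to 2 and 0.28 at week 3 to 4, and the median over all genes had a similar order (0.28, 0.28, 0.10, 0.14 and 0.19). Control 1 was the highest control for 9 markers, control 2 the lowest of all 14 arrays for 4, and animal 10 the lowest of all 14 for 4 others (Pdpn, Pdgfra, Cd248 and Cd34).

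The markers did not vary as 1 unit. Over the 14 arrays the 45 pairs had Pearson correlations between 0.04 and 0.85 with a median of 0.55, given as a description, since the arrays share group differences and signal range. The most alike pairs were Pdpn with Pdgfra (r = 0.85) and Fap with Cdh11 (r = 0.84), and 4 pairs exceeded 0.8. Thy1 was the marker least like the mean of the other 9 (r = 0.21), and its nearest marker was Cd248 (r = 0.54). The genes most like the mean of the markers were Nipbl, a cohesin loader (r = 0.98), Smad2, a transducer of transforming growth factor beta signals (r = 0.98), and Lama4, a laminin chain of vessel and muscle basement membranes (r = 0.97). They were 3 of 397 genes with r over 0.9, or 1.99% of all genes.

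The mean of the markers also moved with the signal range of the array. Its correlation with the SD of log2 values over genes was r = 0.94 (Spearman rho = 0.85) over 14 arrays and 0.82 without animal 10 and control 2, the arrays farthest from the median SD. Over the 11 arthritic joints alone it was 0.94. Among single markers it was highest for Pdgfrb (r = 0.98) and lowest for Thy1 (r = 0.19), and it exceeded 0.8 for 8.51% of all genes. With each array set to 1 median and 1 SD, Fap was called at day 0 to 3 (log2 change 0.96, adjusted p = 0.032), week 1 to 2 (1.57, adjusted p = 0.0019) and week 3 to 4 (1.29, adjusted p = 0.016). Cdh11 was then not called at day 0 to 3 (1.06, adjusted p = 0.16). After a second quantile normalisation, given below, Fap was not called at day 0 to 3. The part of signal range in the marker levels was not tested.

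**Figure D4:**
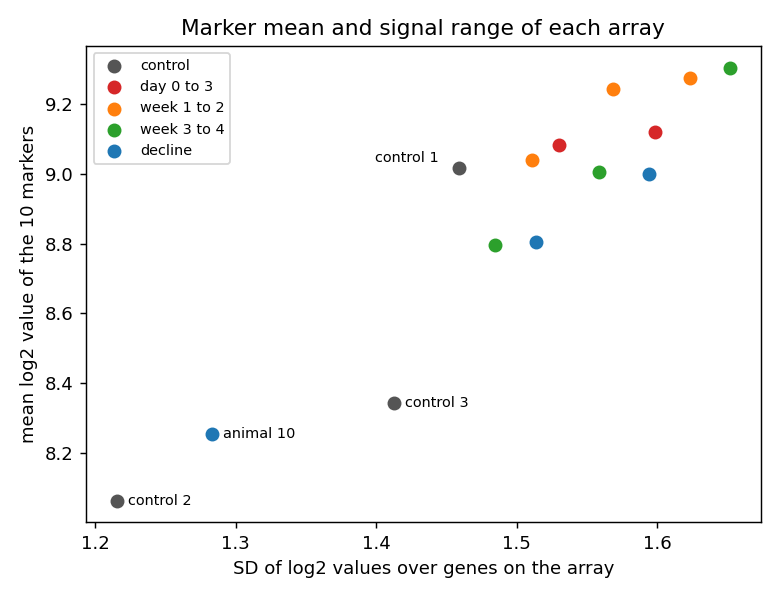
Mean log2 value of the 10 markers (y axis) against the SD of log2 values over all genes (x axis), with 1 point for each of 14 arrays coloured by group. Control 2 and animal 10 lie at the lower left, and the joints of the first 3 phases lie at an SD of 1.48 or more.

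Of 7 PDGF ligands and receptors, 1 was called, Pdgfrl, whose product resembles the ligand-binding part of a PDGF receptor. Pdgfrl stood at 7.18, 6.58 and 6.92 in the controls, 8.44 and 8.60 at day 0 to 3, 8.47, 8.66 and 8.76 at week 1 to 2, 8.03, 7.70 and 8.76 at week 3 to 4 and 7.61, 7.80 and 7.26 in decline. Every arthritic joint lay above every control, and the gene rose 3.07-fold (adjusted p = 0.0047), 3.33-fold (adjusted p = 0.0024) and 2.41-fold (adjusted p = 0.030) in the first 3 phases. The ligand Pdgfc had log2 changes of 1.10 (adjusted p = 0.10) and 1.16 (adjusted p = 0.052) in the first 2 phases. For Pdgfa, Pdgfb and Pdgfd the log2 changes in the 4 phases lay between -0.25 and 0.40. Of 7 integrin subunits that bind THY1, 3 were higher at day 0 to 3: Itgav (log2 change 1.23, adjusted p = 0.026), Itgam (1.14, adjusted p = 0.033), which is also a myeloid marker, and Itga5 (0.75, adjusted p = 0.034). Itgav was also higher at week 1 to 2 (0.98, adjusted p = 0.036).

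Of 17 mesenchymal transcription factors and TWIST1 partners, 2 were called, both higher at week 1 to 2: Snai2, a zinc finger repressor of cadherin genes (log2 change 1.02, adjusted p = 0.047), and Tcf12, an E protein that pairs with TWIST1 (0.77, adjusted p = 0.049). The nearest relative of Prrx1, Prrx2, had a log2 change of 1.02 at week 3 to 4 (adjusted p = 0.081), and that of Twist1, Twist2, had one of 0.04. Against control 0 were called of 7 podoplanin partners, 9 catenins and other cadherins, 6 FAP-related peptidases, 4 relatives or ligands of CD248 and 2 relatives of CD34. Among them were Clec1b, the CLEC-2 gene (log2 change -0.44 at day 0 to 3), Dpp4, the closest relative of Fap (0.09 at day 0 to 3), and Ctnnb1, beta-catenin (0.60 at day 0 to 3, adjusted p = 0.0996).

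Lists of other fibroblast genes were set beside the markers. Of 15 matrix genes, 3 were higher at day 0 to 3, 10 at week 1 to 2, 2 at week 3 to 4 and 0 in decline, with median log2 changes of 0.77, 1.06, 0.82 and 0.46. Lum, the collagen-binding proteoglycan lumican, was called in all 3 (log2 change 1.68, 1.92 and 1.40), as Fap was, while Mfap5, a microfibril component, was called at day 0 to 3 (1.83) and week 1 to 2 (1.89), as Cdh11 was. Of 9 genes of lining fibroblasts, Has2, a hyaluronan synthase (log2 change 1.99), and Vcam1, an adhesion molecule (1.00), were higher at day 0 to 3, and Clic5 (-1.51) and Col22a1 (-0.59) were lower. At week 1 to 2 Vcam1 (1.06) was again higher and Clic5 (-1.21) again lower, as was Clic5 at week 3 to 4 (-0.96). Prg4, the lubricin gene that defines the lining layer, had log2 changes between -0.23 and 0.26 in the 4 phases, none called.

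Markers of other cells that carry these genes were read for the same joints. Of 13 genes of blood endothelium, which shares CD34, 4 were higher at day 0 to 3 (Emcn, Cdh5, Tek and Kdr, with log2 changes from 1.09 to 1.64) and 1 at week 1 to 2 (Emcn, 1.49), and the mean log2 value of the list ran from 6.97 to 7.40 in controls and from 7.63 to 7.70 at day 0 to 3. Of 10 pericyte and smooth muscle genes, which share Pdgfrb and Cd248, 1 was higher at day 0 to 3 (Mcam, 0.56) and 1 at week 1 to 2 (Rgs5, 0.98), and Myh11, a smooth muscle myosin, was lower in each (-0.76 and -0.56). The mean log2 value of that list was 7.81 to 8.27 in controls, 7.89 to 7.94 at day 0 to 3 and 7.99 to 8.02 at week 1 to 2. Of 7 T cell genes, which share Thy1, Cd3g was higher at day 0 to 3 (1.44), and Cd3e was not (-0.14). Of 7 osteoblast genes, which share Cdh11, Ibsp, a bone matrix protein, was higher in the first 3 phases (1.06, 1.30 and 1.49) and Col1a1, a collagen I chain, at week 1 to 2 (1.10), while Dlx5, a homeobox factor of bone formation, was lower at day 0 to 3 (-0.98). The osteoblast list median was -0.12, 0.50, 0.25 and 0.17 over the 4 phases. Of 5 genes of lymphatic endothelium, which shares Pdpn, 0 were called in any phase, and the list median was -0.27, 0.04, 0.51 and 0.33 over the 4 phases. At week 3 to 4 the mean log2 value of that list, 6.46 to 6.64, lay above that of the controls, 6.18 to 6.35, and Prox1, a transcription factor of lymphatic identity, had a log2 change of 0.99 (adjusted p = 0.0502). The mean log2 value of 6 osteocyte genes, which share Pdpn, was 7.25 to 7.49 in controls and 6.79 to 7.02 at day 0 to 3. It was 7.25 to 7.39 at week 1 to 2, 7.35 to 7.62 at week 3 to 4 and 7.37 to 7.61 in decline. That of 7 genes of mast cells and blood progenitors, which share Cd34, was 6.30 to 6.36 in controls and 6.25 to 6.29 at day 0 to 3. The part of these cells in the marker levels was not tested.

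Whole joints were used after skin and visible muscle had been removed, and genes of muscle and epidermis also differed between groups. The mean log2 value of 10 skeletal muscle genes was 11.02 to 11.67 in controls, 8.82 to 9.01 at day 0 to 3, 9.89 to 10.82 at week 1 to 2, 10.14 to 10.47 at week 3 to 4 and 10.20 to 11.18 in decline, and 9 of the 10 were lower at day 0 to 3. That of 9 epidermal genes was 6.11 to 9.25 in controls, 5.54 to 5.58 at day 0 to 3, 5.75 to 6.34 at week 1 to 2, 6.69 to 10.14 at week 3 to 4 and 9.44 to 10.69 in decline. That of 10 macrophage genes was 7.39 to 8.12 in controls and 8.69 to 8.99 at day 0 to 3, when 5 of the 10 were higher. The part of tissue composition in the marker changes was not tested.

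**Figure D5:**
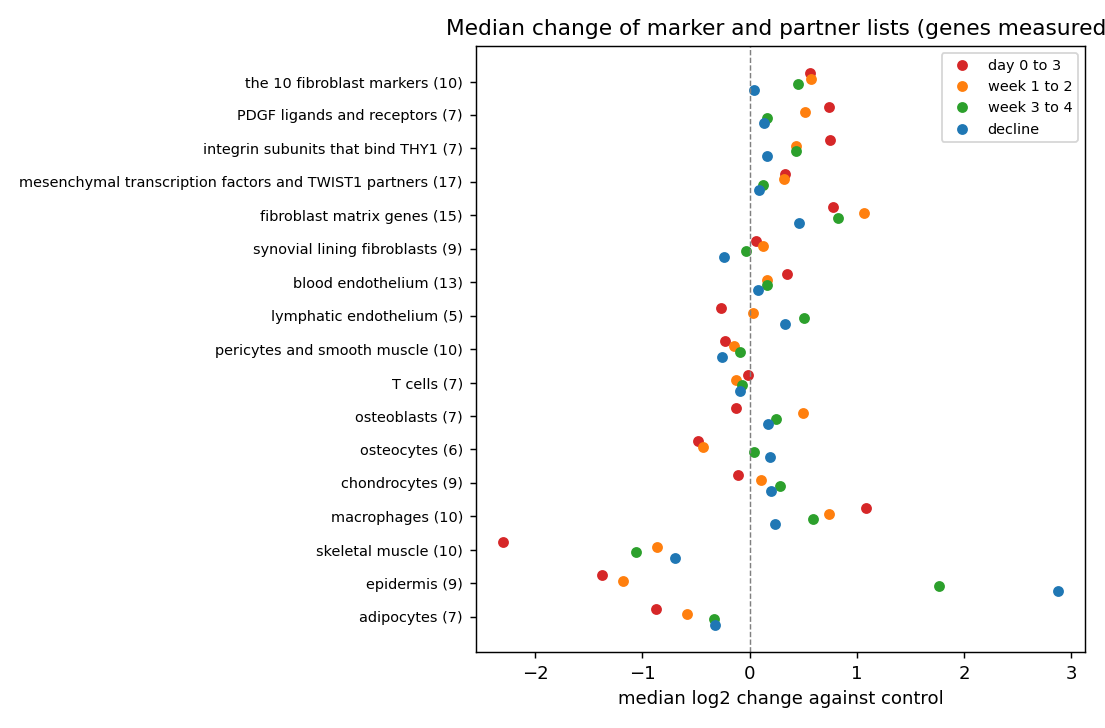
Median log2 change against control (x axis) of the 10 fibroblast markers and 16 other lists (rows, with the number of genes measured), with 1 point for each phase. The markers lie at 0.56, 0.58, 0.45 and 0.04, skeletal muscle at -2.30 at day 0 to 3, and epidermis at 2.87 in decline.

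Animal 57, whose array did not pass quality control, fell below every control for all 10 markers and was the lowest of 15 arrays for 9. Its log2 value was 6.39 for Fap, 7.53 for Cdh11, 7.65 for Pdpn and 6.72 for Cd34, and its array had the narrowest signal range (SD 1.08). With this array included, 0 of 10 markers were called higher in any phase (all genes, 0.0552%, 0.11%, 0% and 0% in the order of the phases), and the log2 change at day 0 to 3 became 0.20 for Fap (adjusted p = 0.97) and 0.49 for Cdh11 (adjusted p = 0.89). At week 1 to 2, where the values themselves are untouched, the adjusted p of Fap became 0.14 with the wider spread.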

How the data were processed

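The authors extracted RNA of tarsal joints with mirVana columns, amplified it with a NuGEN Pico kit and hybridised it to the arrays. RMA in R 2.15, with background correction and quantile normalisation, gave the deposited log2 values per probe set (1.56 to 14.26). Neither the affy version nor the set of arrays normalised (14 or 15) is stated in the labels or methods. Precision is limited by how many arrays there are.

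The array has 35556 probe sets. Left out were 1621 that list several genes and 12146 that list none, and 21789 name 1 gene. The probe set of highest mean stood for each of 999 genes that had several, giving 19938 genes. The 14 arrays were fitted together with 5 group means (limma 3.58.1, R 4.3.3, lmFit and eBayes) and no covariate, and adjusted p-values were computed over all genes for 8 comparisons and the moderated F test. The limma test was tried on simulated data in which each gene had 1 SD in all 5 groups. Such data cannot show how the test behaves where the spread differs between groups, as it did here. The 95% intervals are those of the fit.

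All 10 markers are named. Of each other list, up to 4 called members with the largest change are named, and any member of a partner or family list. The markers and the 22 other lists were chosen with earlier results of these data known. Some listed genes were not analysed here, among them Fbn1, Ccl21a, Lck, Trac, Bglap2, Runx2, Dsg1a and Cfd. Alternatives covered the arrays used, each array left out in turn, the groups in the fit, the test, moderation, array weights, scaling, a filter on low values, the probe sets of a gene, the threshold and a letter code in the array names of the study's supplementary table. By the study's methods each joint came from a different animal, so p-values rest on the spread between animals. The limma fit pools that spread over the 5 groups, although the median SD of the markers was 0.52 in controls and 0.12 at day 0 to 3. A p-value against control thus also rests on the narrower spread of phases not compared. Promoters came from RefSeq.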

Additional observations from a re-analysis of the deposited data

How the results depend on the processing

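Fap at week 1 to 2 was the firmest call: it was kept in 14 of 14 fits that each left out 1 array, as Cdh11 was in 13 of 14 (without animal 43, adjusted p = 0.057). At week 3 to 4 Fap was called in 11 of 14, and at day 0 to 3 in 10 of 14. Over those fits the number of markers called ran from 0 to 4 at day 0 to 3, from 1 to 3 at week 1 to 2, from 0 to 3 at week 3 to 4, from 0 to 1 in decline and from 1 to 2 in the F test, and was 0 in each comparison between phases. The letter code cannot be told apart from arthritis, since it is absent on the controls, and it also follows phase.

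With all 15 arrays 0 markers were called in each of the first 3 phases and 0 by the F test. With an ANOVA of the groups compared, 0 were called in each of the first 3 phases, though the methods do not state which groups entered theirs. With limma on those groups alone, 0 were called at day 0 to 3, 1 at week 1 to 2 and 0 at week 3 to 4. A second quantile normalisation called 0 at day 0 to 3 (Fap, adjusted p = 0.059) and 1 at week 1 to 2 (Cdh11 lost, adjusted p = 0.078), and 1 median and SD for every array called 1 at day 0 to 3. Array weights called 4 at day 0 to 3 and 5 by the F test. A group mean of at least 6 in 1 or more groups, which left fewer genes to adjust over, called 2 by the F test. The letter code as a random block (consensus correlation -0.16) called 5 at day 0 to 3, 6 at week 1 to 2, 3 at week 3 to 4, 1 in decline and 7 by the F test. That block cannot adjust a comparison with control, since the controls carry no letter, so these counts do not account for a batch. Without animal 10 and control 2 together, a choice made after seeing the data, 2, 2, 1 and 0 markers were called in the 4 phases, with Pdpn (adjusted p = 0.042) in place of Cdh11 (adjusted p = 0.071) at day 0 to 3. Where not stated, the cause was not tested.

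Of 2200 values for single markers, 2040 kept direction and call, 38 lost the call, 24 gained it and 98, not called, changed sign. Most of the 2200 belong to changes that were never called and had no call to lose. Of 27 values each, Cdh11 lost its call in 17 at day 0 to 3 and in 5 at week 1 to 2. Fap lost its call in 8 of 27 at day 0 to 3, 2 at week 1 to 2 and 6 at week 3 to 4. No called change reversed. No paired analysis was possible because the labels give the groups no shared numbers.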
